A study of Bos taurus with 14 samples.

Results

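GPD1, GPAT4, DGAT1, BSCL2 and CIDEA are 5 genes of triacylglycerol synthesis and lipid droplet formation, described here in the mammary gland of dairy cows. They were chosen by name for their role, with earlier results of these data known, and no measured value entered the rule. The array gave values for 6697 gene symbols, and each of the 5 had 1 probe set, so no choice between probe sets was needed. All 5 passed the filter on dim probe sets.

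Triacylglycerol is the main lipid of milk. GPD1 reduces dihydroxyacetone phosphate, an intermediate of glycolysis, to glycerol 3-phosphate, the backbone of the molecule. GPAT4, also called AGPAT6, adds the first fatty acid at the endoplasmic reticulum, and DGAT1 adds the last. BSCL2 encodes seipin, a protein of the endoplasmic reticulum at the sites where lipid droplets form. CIDEA sits on the droplet surface, where in mouse it helps droplets to fuse and to be secreted as milk fat globules.

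Mammary tissue of 14 Holstein-Friesian cows was hybridised to an Affymetrix bovine array, 1 array per cow. The design grouped the cows in 7 blocks by parity, calving time and earlier milk yield, but the match was not exact. Parity labels differed within 4 of the 7 blocks, and expected calving dates by up to 48 days. Both cows labelled parity 6 were Control cows, of blocks 303 and 308, each paired with an Omega cow labelled 4. In each block 1 cow was drawn at random for a basal diet with a concentrate containing linseed, which is rich in alpha-linolenic acid (Omega, n = 7), and 1 for a concentrate without linseed (Control, n = 7). Feeding began 3 weeks ahead of the expected calving date and ended 6 weeks after calving. Per the labels, 4 cows had parity 1, 2 had parity 2 and 8 had a higher parity, while the design text counts the parities differently and names no cow of first parity. The labels were used as given. The sampling day and the ages of the cows are not given in the sources used here. Each replicate was a separate cow, and the number of arrays limits the precision of every value.

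Levels are deposited log2 intensities. They rank cows for 1 gene but do not rank genes against each other. Markers of the secretory epithelium were present. LALBA, the milk protein that makes lactose synthesis possible, was at 14.50 to 14.60 log2 in all 14 cows, where the highest value of the table was 14.81. In the adipocyte list, LEP, RETN, PLIN1, CIDEC, PCK1, LIPE and THRSP lay below the filter of 4.59 log2. FABP4, CFD and AQP7 of the same list lay above it, at means of 12.58, 8.17 and 5.98 log2. GPD1 and CIDEA are on that list as well, since fat cells also express them. In whole tissue, fewer cells of a type and less RNA per cell cannot be told apart. The Control cows of blocks 302 and 304 stood apart from the other 12 over the whole array, at 43.7 and 46.4 on the first principal component against -18.1 to 10.8. SAA3, an acute-phase protein made in the udder, was at 12.80 and 13.82 log2 in these cows and at 6.70 to 10.20 in the others. The main results below are therefore also given without them or without their blocks.

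GPD1 was the steadiest of the 5 genes once these 2 cows were set aside. In Omega cows the lowest, median and highest levels were 9.74, 9.87 and 10.09 log2. In Control cows they were 8.37, 9.79 and 10.01. The Control cow of block 304 (8.37) and that of block 302 (8.67) were the lowest of all, and the next lowest cow was at 9.69. The groups overlapped, and the other 5 Control cows lay inside or close to the Omega range. The Omega mean was 9.89 ± 0.13 log2 and the Control mean 9.46 ± 0.66 (SD, n = 7 per diet). Over all 14 cows the SD was 0.51, above that of 92.2% of the tested probe sets. Without the 2 Control cows it was 0.12, above that of 12.3%.

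By block, the Omega minus Control difference of GPD1 was 1.20 log2 in block 302, 0.22 in 303, 1.36 in 304, -0.069 in 305, 0.41 in 306, -0.19 in 307 and 0.080 in 308. Blocks 302 and 304 thus held the 2 largest differences, and the remaining 5 lay on both sides of 0. The mean difference was 0.43 log2 (95% interval -0.015 to 0.87), or 1.35-fold. It did not pass limma after adjustment over all probe sets (adjusted p = 0.460), and the exact sign-flip test over the 7 blocks gave p = 0.109. Without blocks 302 and 304 the mean difference was 0.090 log2 (-0.16 to 0.34). Without block 306 as well, a setting added after seeing the data, it was 0.011 (-0.23 to 0.25).

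GPAT4 varied more widely than GPD1, among Omega cows as well. The Omega cows had a lowest level of 7.79 log2, a median of 8.90 and a highest level of 9.15. The Control cows had 6.86, 8.64 and 9.42. The Control cows of blocks 304 (6.86) and 302 (7.31) were again the lowest, followed by the Omega cow of block 306 (7.79). That Omega cow also had the highest SAA3 level of its group, 10.20 log2. The Omega mean was 8.74 ± 0.47 and the Control mean 8.45 ± 1.00 (SD, n = 7 per diet), a difference smaller than the SD of either group. The SD over 14 cows was 0.77, above that of 97.9% of probe sets, and over 12 cows 0.46, above that of 95.7%.

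GPAT4 had the widest range of block differences. Its difference was 1.77 log2 in block 302, -0.12 in 303, 1.82 in 304, 0.26 in 305, -1.40 in 306, -0.40 in 307 and 0.10 in 308. Omega was higher in 4 blocks and lower in 3. The mean difference was 0.29 log2 with an interval of -0.52 to 1.10 (limma adjusted p = 0.711, exact sign-flip p = 0.484). Without blocks 302 and 304 the sign turned, to -0.31 log2 (-0.82 to 0.20). Leaving out block 306 too, a setting added after seeing the data, gave -0.038 (-0.33 to 0.26).

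DGAT1 spanned the narrowest range over all 14 cows. Its lowest, median and highest levels were 6.81, 6.99 and 7.37 log2 in Omega and 6.37, 6.91 and 7.16 in Control cows. The Control cow of block 302 was the lowest, while that of block 304, at 6.91, was the sixth lowest of the 14. So only 1 of the 2 cows that stood apart was low for this enzyme. The Omega cow of block 302 was the highest, which placed both ends of the DGAT1 range in the same block. The means were 7.06 ± 0.23 and 6.84 ± 0.25 log2 (SD, n = 7 each), and the groups overlapped.

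The DGAT1 difference was 1.00 log2 in block 302 and between -0.17 and 0.42 in the other 6, namely 0.12, -0.086, 0.42, -0.17, -0.067 and 0.32 in blocks 303 to 308. Omega was higher in 4 of 7 blocks. The mean was 0.22 log2 (-0.096 to 0.54, limma adjusted p = 0.527, exact sign-flip p = 0.219). Without blocks 302 and 304 it was 0.13 (-0.13 to 0.38).

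BSCL2 was the gene with the most blocks in 1 direction. Levels in Omega cows ran from 7.00 log2 through a median of 7.35 to 7.56. In Control cows they ran from 6.34 through 6.84 to 7.64. The lowest 2 cows were the Control cows of blocks 302 (6.34) and 304 (6.64), yet the highest cow of all was also a Control cow, that of block 306. The means were 7.33 ± 0.20 log2 for Omega and 6.96 ± 0.44 for Control (SD, n = 7 per diet). The difference was 1.16 log2 in block 302 and 0.40, 0.35, 0.34, -0.29, 0.43 and 0.21 in blocks 303 to 308, so that Omega was higher in 6 of 7.

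For BSCL2 the mean difference was 0.37 log2 (0.044 to 0.70), or 1.29-fold (1.03 to 1.62). The unadjusted limma p was 0.0302 and the exact sign-flip p was 0.0469, where 0.0156 is the smallest that 7 blocks allow. Neither passed after adjustment over all probe sets (adjusted p = 0.447 in limma and 0.459 for the sign-flip test). Without blocks 302 and 304 the difference was 0.22 log2 (-0.061 to 0.50). Leaving out block 306 as well, a setting added after seeing the data, gave 0.34 (0.13 to 0.56, limma adjusted p = 0.578). Block 306 was the only block with BSCL2 lower in Omega (-0.29 log2), so this setting cannot check the direction.

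CIDEA had the widest spread of the 5 genes. Omega cows had 10.58, 11.41 and 11.78 log2 as lowest, median and highest level, and Control cows had 8.96, 10.80 and 11.98. The Control cow of block 304 was the lowest, followed by the Control cow of block 308 (9.48), which did not stand apart on the array as a whole, and by the Control cow of block 302 (10.16). The highest level belonged to a Control cow too, that of block 303. The means were 11.38 ± 0.43 and 10.60 ± 1.13 log2 (SD, n = 7 each). The SD over 14 cows was 0.92, above that of 98.9% of probe sets, and over 12 cows it was 0.71, above that of 99.0%.

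The CIDEA difference was 1.62 log2 in block 302, -0.28 in 303, 1.62 in 304, 0.44 in 305, 0.58 in 306, -0.73 in 307 and 2.25 in 308. Here the largest difference lay outside blocks 302 and 304. In block 308 (2.25) and in block 303 (-0.28) the Control cow had parity label 6 and the Omega cow 4. Diet and parity cannot be told apart within these blocks. The mean difference was 0.79 log2 (0.027 to 1.54), or 1.72-fold (1.02 to 2.92), with Omega higher in 5 of 7 blocks. Its unadjusted limma p was 0.0439 and its adjusted p was 0.450, and the exact sign-flip test gave p = 0.125. Without blocks 302 and 304 the difference was 0.45 log2 (-0.39 to 1.29).

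**Figure D1:**
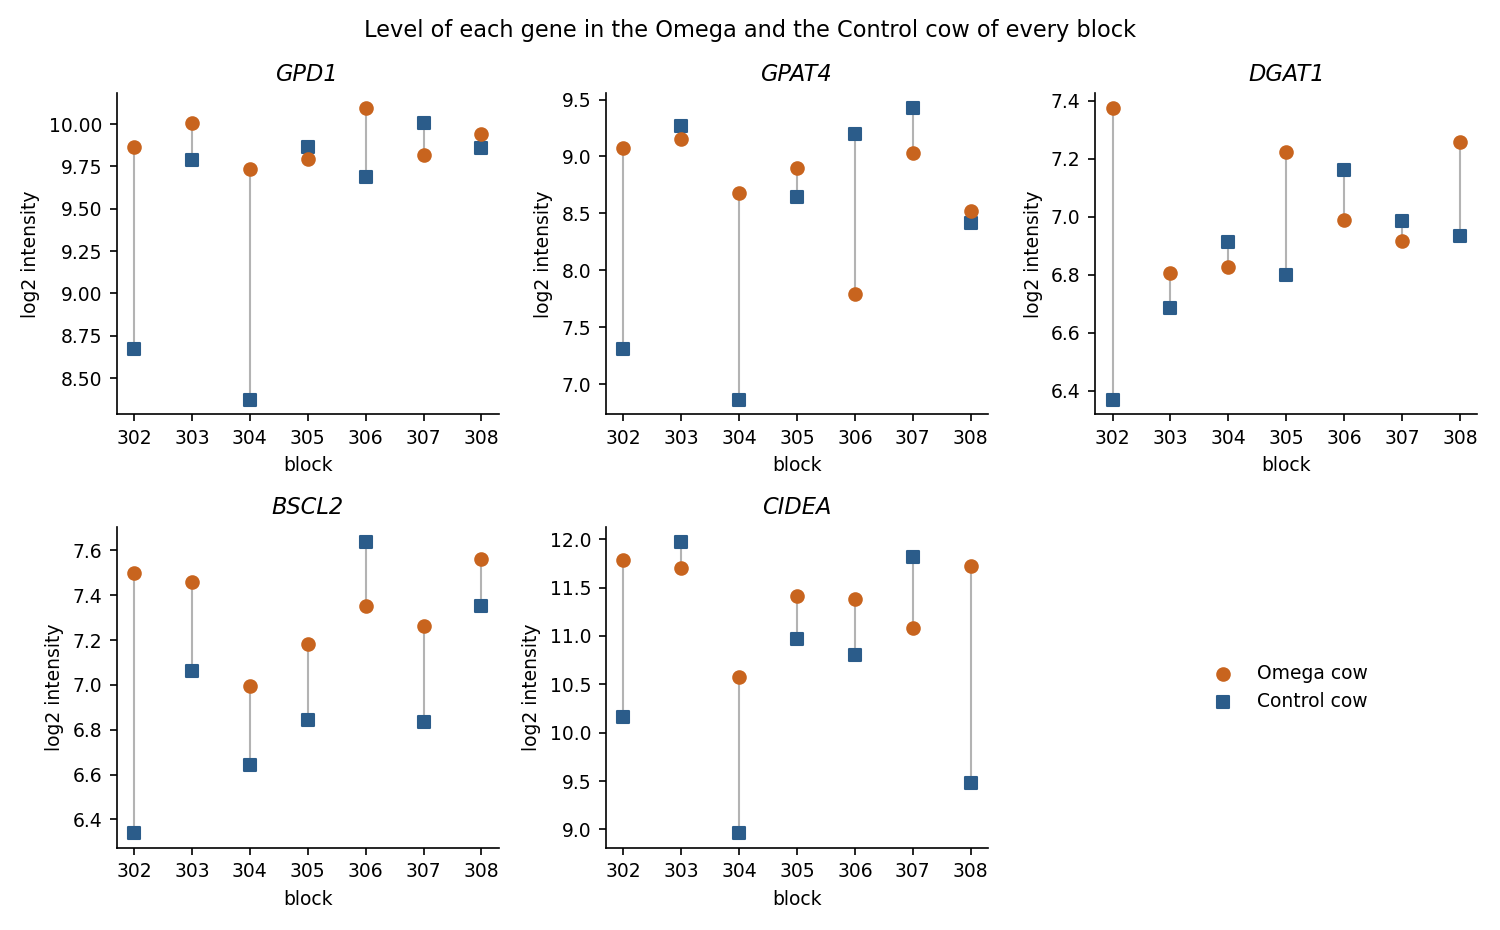
Log2 intensity (y axis, a separate scale for each gene) of the 5 genes in the Omega cow (circle) and the Control cow (square) of each block (x axis), joined by a line. The Control cows of blocks 302 and 304 are the lowest 2 for GPD1, GPAT4 and BSCL2, and CIDEA has its widest gap, 2.25 log2, in block 308.

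Set side by side, the mean of all 5 genes was higher in Omega cows, and 0 of the 5 passed limma at an adjusted p under 0.05. No probe set passed over the whole array either (0 of 7518, which is 0.0%, smallest adjusted p = 0.447). A mean above 0 was found in 43.1% of all tested probe sets. BSCL2 and CIDEA had an unadjusted p under 0.05 with Omega higher, as did 284 probe sets, or 3.78%. In either direction 827 probe sets, or 11.0%, had such a p. The split of these 827 was 284 higher and 543 lower as deposited, and 393 and 388 after quantile normalization. All 5 genes kept a mean above 0 with median centring and with quantile normalization. Under exact sign-flipping 1 of the 5, BSCL2, had an unadjusted p under 0.05, against 10.2% of all probe sets. Omega was higher in at least 6 of 7 blocks for BSCL2 alone, against 8.06% of probe sets, and in at least 5 for GPD1, BSCL2 and CIDEA, against 23.3%.

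The median of the 5 differences was 0.37 log2, and -0.031 over all probe sets. Leaving out blocks 302 and 304, the 5 had a median of 0.13 log2 and the whole array -0.012. In that setting GPD1, DGAT1, BSCL2 and CIDEA stayed above 0 and GPAT4 lay below it, and 3485 of the 7518 probe sets lay above 0. A turn from above to below 0 occurred in 12.1% of all probe sets. GPD1 and GPAT4 had larger differences in both of these blocks than in any other, as did 15.5% of probe sets. The means of markers of other cell types were also compared between the diets. Fibroblast markers were lower in Omega cows in 8 of 8 tested genes, with a median of -0.40 log2, and in 7 of 8 without blocks 302 and 304, with a median of -0.16. Leukocyte markers were lower in 8 of 9 (median -0.089) and in 2 of 9 without these blocks (0.089), and acute-phase genes in 6 of 6 (-0.65) and in 0 of 6 (0.47). None of these genes passed the adjusted test, and their part in the differences of the 5 genes was not tested.

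Weighting the arrays by their fit to the block model gave 0.19 log2 for GPD1 and 0.10 for GPAT4, against 0.43 and 0.29 unweighted. The same weighting gave 0.21 for DGAT1, 0.32 for BSCL2 and 0.68 for CIDEA.

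**Figure D2:**
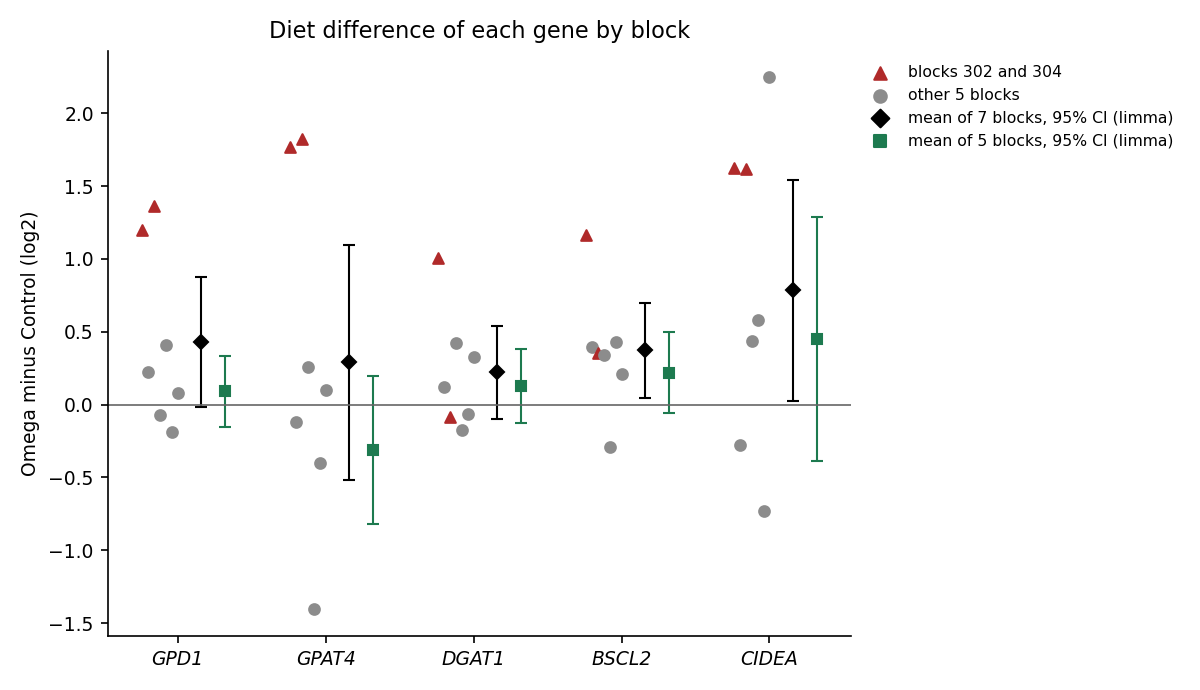
Omega minus Control difference (y axis, log2) of each gene (x axis) in blocks 302 and 304 (triangles) and in the other 5 blocks (grey circles), with the limma mean and its 95% confidence interval over 7 blocks (diamond) and over 5 blocks (square). For GPAT4 the mean lies at 0.29 log2 over 7 blocks and at -0.31 over 5.

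The Control cows of blocks 302 and 304 were the 2 lowest of 14 for GPD1, GPAT4 and BSCL2, that is for 3 of the 5 genes. The same held for 15.5% of all tested probe sets. Several other measures moved with these 2 cows. The summed level of a marker list is given here as the mean over its tested genes of log2 values centred on each gene. For luminal epithelium (11 of 15 listed genes) it was 0.43 and 0.32 in the 2 cows and -0.19 to 0.18 in the other 12. Its genes did not all differ in the same direction. The keratin KRT8 was at 10.57 and 10.81 log2 against 6.90 to 9.19 in the others, and EPCAM and PRLR were above the others as well. LALBA, at 14.50 and 14.53, was not raised, but in all cows it lay close to the highest value of the table, 14.81, with little room to rise. BTN1A1, at 12.75 and 12.44, lay below the range of 13.26 to 13.60. For myoepithelium (6 of 10) it was 0.58 and 0.42 against -0.33 to 0.17.

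The fibroblast list (8 of 14) stood at 0.91 and 0.65 against -0.36 to 0.20, and the leukocyte list (9 of 15) at 0.40 and 0.61 against -0.39 to 0.21. Acute-phase genes (6 of 11) stood at 1.75 and 3.28 against -0.88 to 1.10. Endothelial markers (7 of 10), at 0.047 and -0.17, lay within the range of the others, -0.26 to 0.17. The adipocyte list without GPD1 and CIDEA (3 of 14, namely FABP4, CFD and AQP7) was at -0.13 and -0.37 against -0.18 to 0.38. Control features of the 2 arrays were also compared. The mean over 12 probe sets of poly-A spikes, added to the RNA before labelling, was 6.41 and 6.18 log2 against 6.75 to 7.41. The hybridisation spikes, at 10.37 and 10.38, lay within the range of 9.93 to 11.13, and so did the gap between 3′ and 5′ probe sets of actin, at 2.44 and 2.43 against 2.09 to 2.69. The same gap for GAPDH, at 0.80 and 0.78, lay just below the range of 0.81 to 1.40. The level of the 3′ probe set of GAPDH, at 11.73 and 11.42 log2, lay above the range of 10.03 to 10.61. Whether tissue composition, inflammation, RNA quality or RNA input had a part in the low levels of GPD1, GPAT4 and BSCL2 was not tested.

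Parity, a count of calvings, was compared by label between the 4 cows labelled 1 and the 10 cows with a higher label. The 4 cows labelled 1 had a milk yield from a previous lactation, so the label may leave out the calving of this study. None of the 5 genes passed in this comparison, and neither did any of the 7518 probe sets (0.0%). At an unadjusted p under 0.05 the array gave 165 probe sets (2.19%), of which 0 were among the 5. GPD1 was at 9.58 ± 0.63 log2 in the 4 cows and 9.72 ± 0.48 in the 10 (SD), a difference of -0.14 (-0.71 to 0.43). GPAT4 was at 8.34 ± 0.94 and 8.69 ± 0.72, a difference of -0.35 (-1.27 to 0.57). Both intervals are wider than the diet intervals of the same genes.

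DGAT1 was at 6.97 ± 0.43 log2 in parity 1 and 6.93 ± 0.18 in the others, with a difference of 0.039 (-0.27 to 0.35). BSCL2 was at 7.21 ± 0.59 and 7.12 ± 0.30, with a difference of 0.087 (-0.33 to 0.51). CIDEA was at 11.03 ± 0.71 and 10.97 ± 1.03, with a difference of 0.063 (-0.96 to 1.08). For all 5 genes the classes overlapped, limma gave adjusted p-values of 0.983 to 0.992, and exact permutation of the 4 against the 10 cows gave p from 0.483 to 0.918. Each class held 1 of the 2 Control cows that stood apart. Without both of them the differences were 0.0093 log2 for GPD1, -0.17 for GPAT4, 0.23 for DGAT1, 0.31 for BSCL2 and 0.10 for CIDEA. Leaving out only that of block 302, a setting added after seeing the data, takes a cow from the parity 1 class alone. The differences were then 0.11 log2 for GPD1, 0.0011 for GPAT4, 0.23 for DGAT1, 0.33 for BSCL2 and 0.25 for CIDEA. Milk of the previous lactation was recorded at 2110 to 2771 in the parity 1 cows and 3635 to 4841 in the others, so that parity and earlier yield cannot be told apart.

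**Figure D3:**
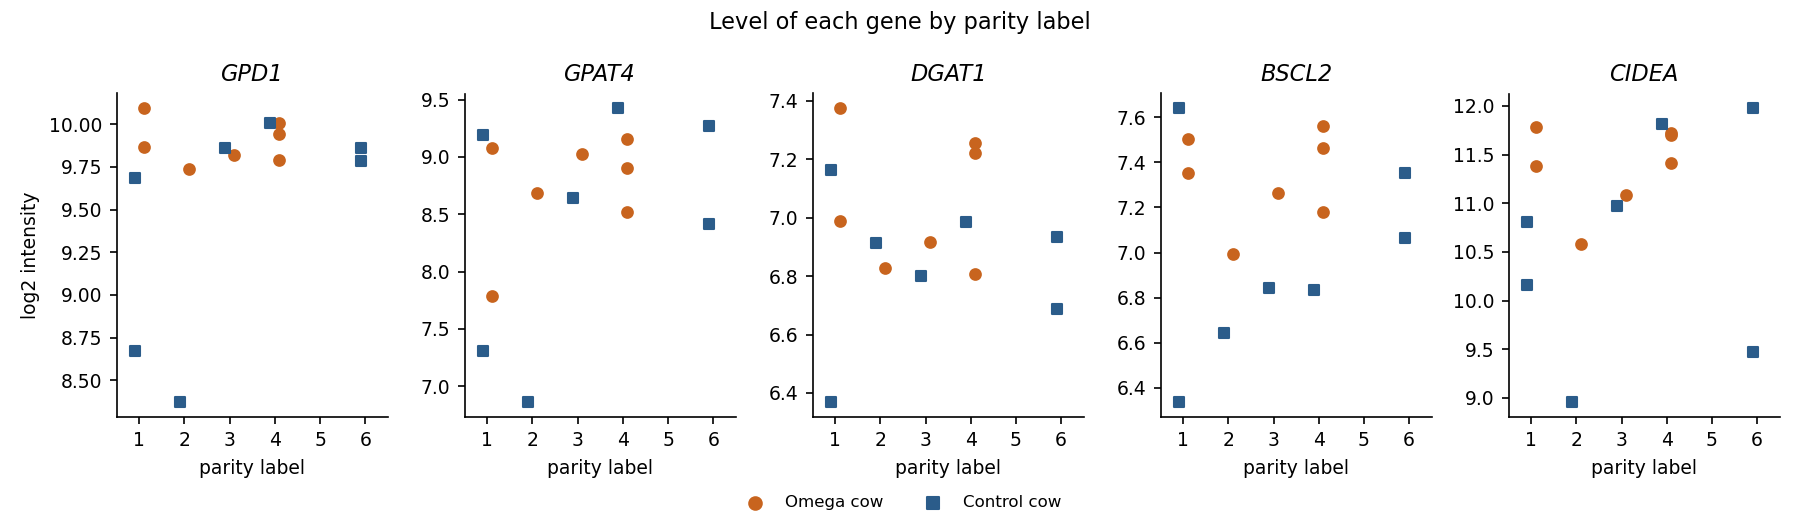
Log2 intensity (y axis, a separate scale for each gene) by parity label (x axis) in Omega (circles) and Control cows (squares), 1 point per cow. The classes overlap for every gene, and the 8 cows of parity 3 or more lie between 9.79 and 10.01 log2 for GPD1 but between 9.48 and 11.98 for CIDEA.

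The 2 cows of parity 2 were those of block 304. The 8 cows with a label of 3 or more were close together for GPD1, at 9.88 ± 0.09 log2 (SD), and less so for GPAT4, at 8.92 ± 0.37. Their CIDEA levels were 11.27 ± 0.81, with the Control cow of block 308 far below the rest. DGAT1 was at 6.95 ± 0.20 and BSCL2 at 7.20 ± 0.27 in the same cows.

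The diet difference was also compared between the parity classes. Both cows of blocks 302 and 306 had parity 1, so the class is fixed within a block. For GPD1 the diet difference was 0.80 log2 (-0.031 to 1.63) in parity 1 and 0.28 (-0.25 to 0.81) in the other 5 blocks. For CIDEA it was 1.10 (-0.41 to 2.61) and 0.66 (-0.30 to 1.61). Each class again includes 1 of the 2 Control cows that stood apart.

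For GPAT4 the diet difference was 0.18 log2 in parity 1 and 0.33 in the others, for DGAT1 0.42 and 0.14, and for BSCL2 0.44 and 0.35. The parity 1 mean of GPAT4 averages 1.77 in block 302 and -1.40 in block 306, which lie at opposite ends. Tested as an interaction, the gaps between the classes were 0.52 (GPD1), -0.15 (GPAT4), 0.27 (DGAT1), 0.092 (BSCL2) and 0.44 (CIDEA) log2. None of the 5 and none of the 7518 probe sets passed (0.0%, adjusted p = 1.00 in limma for each of the 5). An unadjusted p under 0.05 was found for 125 probe sets (1.66%) and for 0 of the 5. The gaps were 0.40 (GPD1), -1.37 (GPAT4), -0.37 (DGAT1), -0.63 (BSCL2) and 0.16 (CIDEA) log2 when blocks 302 and 304 were left out, which kept 1 block of parity 1. With 2 blocks in 1 class the intervals reached from -2.09 to 1.78 for GPAT4 and from -0.46 to 1.51 for GPD1.

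Covariation was measured for the 10 pairs of genes, with permutation p-values adjusted over the 10. Over all 14 cows, 5 pairs had an adjusted permutation p under 0.05, each of 0.023. GPD1 correlated with GPAT4 at r = 0.77, with CIDEA at 0.72 and with BSCL2 at 0.69. GPAT4 correlated with CIDEA at 0.72, and DGAT1 with BSCL2 at 0.72. The remaining 5 pairs had r from 0.31 to 0.54.

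None of these 5 relations passed without the 2 Control cows that stood apart, and each had a lower r. Over the other 12 cows r was -0.37 for GPD1 with GPAT4, 0.35 for GPD1 with CIDEA and 0.0035 for GPD1 with BSCL2. It was 0.38 for GPAT4 with CIDEA and 0.57 for DGAT1 with BSCL2, and 0 of the 10 pairs passed (smallest adjusted permutation p = 0.571). DGAT1 with BSCL2 was the pair whose r moved least among the 5 that passed. Its r of 0.57 lay above the 95th percentile of r with all other symbols over these 12 cows for both genes, 0.51 for DGAT1 and 0.54 for BSCL2. As the largest r of the 10 pairs over these cows, it was more likely to do so than 1 pair chosen beforehand. The 2 cows farthest from the GPD1 median, and from the GPAT4 median, were the same 2 cows. For DGAT1 with BSCL2, leaving out the 2 cows farthest from the DGAT1 median gave r = 0.47.

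By rank over 14 cows, rho was 0.24 for GPD1 with GPAT4, 0.36 for GPD1 with BSCL2, 0.60 for GPD1 with CIDEA, 0.70 for GPAT4 with CIDEA and 0.64 for DGAT1 with BSCL2. None passed after adjustment, the smallest adjusted permutation p being 0.071. By rank over the 12 cows, a setting added after seeing the data, rho was -0.21, -0.0070, 0.40, 0.54 and 0.56 in the same order. The last 2, GPAT4 with CIDEA and DGAT1 with BSCL2, each had an adjusted permutation p of 0.380. Over the 7 block differences, r was 0.80 for DGAT1 with BSCL2, 0.75 for GPAT4 with BSCL2 and 0.75 for GPD1 with GPAT4, and again none passed (adjusted exact permutation p = 0.235 for each). All levels share the array and its normalisation. Over 14 cows the 95th percentile of r with the 4931 other symbols was 0.79 for GPD1, 0.78 for GPAT4, 0.73 for BSCL2, 0.64 for CIDEA and 0.59 for DGAT1. GPD1 with GPAT4 and GPD1 with BSCL2 lay below the percentiles of both genes, and the other 3 pairs lay above that of CIDEA or DGAT1 only.

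**Figure D4:**
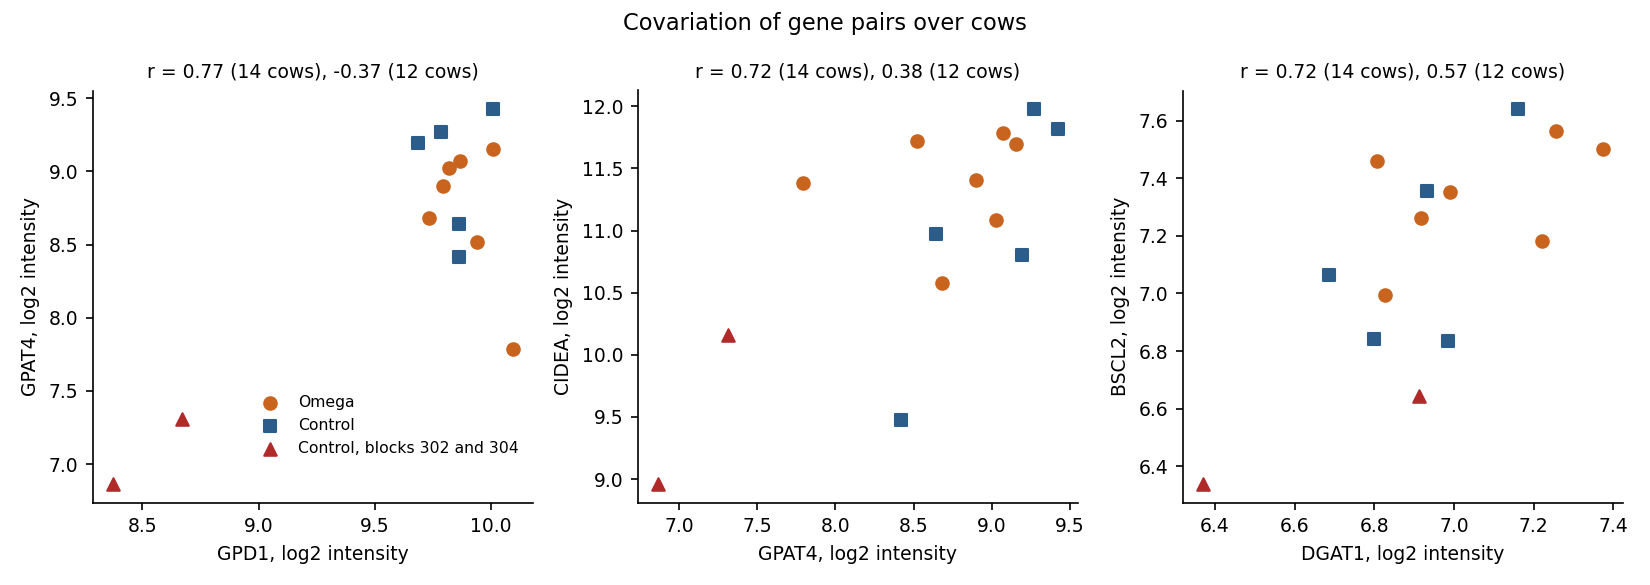
Log2 intensity of GPAT4 against GPD1, CIDEA against GPAT4 and BSCL2 against DGAT1, 1 point per cow, with the Control cows of blocks 302 and 304 as triangles. For GPD1 and GPAT4, r is 0.77 over 14 cows and -0.37 over the 12 others. For DGAT1 and BSCL2 it is 0.72 and 0.57.

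The symbols most like each gene in pattern were found by Pearson's r over 4932 symbols. Over 14 cows GPAT4 was closest to CD36, a fatty acid receptor and transporter found in the milk fat globule membrane, at r = 0.975, then to ERCC5, a nuclease of DNA repair (0.963), and TBC1D9B (0.956). Over the 12 cows CD36 (0.937) and ERCC5 (0.887) stayed closest, joined by FABP3, the fatty acid binding protein of mammary epithelium, at 0.887. For the other 4 genes the list changed more.

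GPD1 was closest over 14 cows to GCAT, an enzyme of threonine breakdown (0.962), RAB26, a small GTPase of secretory vesicles (0.961), and MUC15, a mucin of the milk fat globule membrane (0.959). Over 12 cows, where GPD1 varied little, its closest symbols were ATRAID (0.844), MCEE (0.786) and SF3B5 (0.786). None of the 3 recurred. DGAT1 was closest to SDR39U1 in both sets, at 0.898 and 0.918. Over 14 cows ACTN2 (0.875) and CRYBB1 (0.860) came next, and over 12 PGLS, an enzyme of the pentose phosphate pathway (0.877), and NUP188 (0.852), a nuclear pore protein.

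BSCL2 was closest over 14 cows to LRCH4 (0.912), the transcription factor SOX4 (0.898) and OPLAH, an enzyme of glutathione turnover (0.894). Over 12 cows POLD1 (0.843) and LMAN2L (0.834) led, with OPLAH (0.809) again among the closest 3. CIDEA was closest over 14 cows to NDUFS6, a subunit of respiratory complex I (0.901), SH3BGRL2 (0.860) and FADD, an adaptor of death receptors (0.849). Over 12 cows these were UQCC6, an assembly factor of complex III (0.839), NDUFS6 (0.826) and EFEMP2 (0.824). None of the 5 genes was among the 3 closest symbols of another. The closest such pair was BSCL2 seen from DGAT1, at rank 51 over 14 cows.

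The labels give fat and milk yield of the earlier lactation, and fat per 100 units of milk was set against the 5 levels. It ran from 3.09 to 4.81 over the 14 cows. GPD1 correlated with it at r = 0.55 (permutation p = 0.032, adjusted over 5 genes 0.159) and rho = 0.48. Without the 2 cows farthest from the median of fat content r was 0.37, and without the 2 Control cows that stood apart it was 0.18. For GPAT4, DGAT1, BSCL2 and CIDEA r was 0.33, 0.39, 0.37 and 0.12, with adjusted permutation p from 0.315 to 0.673. Their rho was 0.037, 0.25, 0.25 and 0.10. Over the 12 cows r was -0.26, 0.065, -0.13 and -0.34. So no relation to fat content passed, and GPD1 had the largest r of the 5.

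SAA3 splits the 2 Control cows from the rest, so its relation to the 5 genes was examined within the other 12, a comparison added after seeing the data. GPAT4 had r = -0.60 with SAA3 (permutation p = 0.043, adjusted over 5 genes 0.214) and rho = -0.49 (permutation p = 0.111). Without the Omega cows of blocks 305 and 306, which had the highest SAA3 of the 12 at 9.14 and 10.20 log2, r was -0.19. Of these 2, the Omega cow of block 306 had the lowest GPAT4 level of the 12 (7.79 log2), while that of block 305 was at 8.90. Leaving out only 1 of them was not tested. GPD1, DGAT1, BSCL2 and CIDEA had r of 0.26, -0.14, -0.21 and 0.13, each with an adjusted permutation p of 0.675. Without the same 2 cows r was -0.60 for DGAT1 (adjusted permutation p = 0.315) and -0.50 for BSCL2 (0.364).

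The wider pathway was taken from lists drawn up with earlier results of these data known. Of 22 genes of triacylglycerol synthesis, 15 were measured and 9 tested. In this list 6 were higher in Omega cows and 3 lower, 0 passed in either direction, and the median was 0.24 log2, or 0.021 without blocks 302 and 304. GPD1, GPAT4 and DGAT1 are on this list, and the 6 tested genes besides them were 3 higher and 3 lower, with a median of 0.018 log2. GPAM, the mitochondrial enzyme that catalyses the same acylation as GPAT4, had an Omega mean of 12.20 ± 0.41 log2 and a Control mean of 12.40 ± 0.42 (SD, n = 7 per diet). It was lower in Omega in 6 of 7 blocks, by a mean of -0.20 log2 (-0.51 to 0.11), or -0.36 without blocks 302 and 304, and was named after its values were seen.

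AGPAT2 and AGPAT1 add the next fatty acid after GPAT4. AGPAT2 differed by 0.27 log2 (-0.042 to 0.57) with Omega higher in 6 of 7 blocks, and AGPAT1 by 0.24 (-0.093 to 0.56) with Omega higher in 5. These became 0.17 and 0.025 without blocks 302 and 304. GK, which makes glycerol 3-phosphate from glycerol and so reaches the product of GPD1 by another route, differed by 0.42 (-0.14 to 0.98). In the 2 Control cows GK was at 5.29 and 4.56 log2, and without their blocks its difference was -0.0033. TPI1, which interconverts the 2 triose phosphates of glycolysis, differed by -0.33 (-0.79 to 0.12), with those cows at the top, at 9.41 and 9.53, and without their blocks by 0.021. AGPAT3, AGPAT4, DGAT2, MOGAT1, GPD1L and GPD2 were measured below the filter and not tested.

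Of 29 genes of lipid droplet formation and turnover, 17 were measured and 11 tested, 6 higher and 5 lower in Omega, with 0 passing and a median of 0.072 log2, or -0.043 without blocks 302 and 304. CIDEA and BSCL2 had the 2 largest differences above 0 in this list, and the 9 tested genes besides them were 4 higher and 5 lower, with a median of -0.0067. PNPLA2, the main triacylglycerol lipase of droplets, differed by 0.28 (-0.23 to 0.79) and SPAST, a microtubule-severing protein, by 0.10 (-0.12 to 0.33). PLIN3, a droplet coat protein, differed by -0.13 (-0.42 to 0.16) and HSD17B11, a droplet enzyme, by -0.46 (-1.07 to 0.15). For HSD17B11 the 2 Control cows stood at 9.10 and 9.12 log2, the highest of the 14. When blocks 302 and 304 were left out, the differences were 0.079 for PNPLA2, 0.12 for SPAST, -0.33 for PLIN3 and -0.043 for HSD17B11. CIDEC, PLIN1, PLIN5, HSD17B13, LIPE and TOR1AIP1 lay below the filter.

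Among 10 genes of the milk fat globule envelope, 9 were tested, CIDEA being 1 of them. In Omega cows 8 were higher and 1 lower, none passed, and the median was 0.19 log2. Quantile normalization turned this to 9 of 9. MUC15 differed by 0.51 (-0.069 to 1.08), MFGE8, a secreted membrane protein of the globule, by 0.49 (-0.30 to 1.29), BTN1A1, the butyrophilin that anchors the membrane to the droplet, by 0.20 (-0.11 to 0.52) and FABP3 by 0.19 (-0.14 to 0.53). When blocks 302 and 304 were left out, only 2 of the 9 were higher, against 3485 of all 7518 probe sets, and the median was -0.048. CIDEA then differed by 0.45, MUC15 by 0.037, MFGE8 by -0.010, BTN1A1 by -0.025 and FABP3 by -0.048 log2.

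Of 16 genes of fatty acid supply 14 were tested, 10 higher and 4 lower, with 0 passing and a median of 0.16 log2 that was -0.048 without the 2 blocks. ACACA, which makes malonyl-CoA for new fatty acids, differed by 0.39 and ACSL1, which activates long-chain fatty acids, by 0.25. ACLY, the source of cytosolic acetyl-CoA, differed by -0.20 and VLDLR, a lipoprotein receptor, by -0.27. Leaving out the 2 blocks gave -0.048 for ACACA, 0.010 for ACSL1, -0.030 for ACLY and -0.38 for VLDLR. Of 14 lipid regulators 5 were tested, 4 higher and 1 lower, with 0 passing and a median of 0.14, or -0.030 without the 2 blocks. SREBF1, a transcription factor of lipid synthesis, differed by 0.19, its escort SCAP by 0.14, its inhibitor INSIG1 by 0.17 and PPARG, a nuclear receptor of fat storage, by -0.19. These became -0.030 for SREBF1, 0.046 for SCAP, -0.027 for INSIG1 and -0.48 for PPARG without the 2 blocks. The same median over all tested probe sets was -0.031 log2 and 43.1% were higher. After quantile normalization the numbers higher and lower were 7 and 4 for lipid droplets, 11 and 3 for fatty acid supply and 3 and 2 for the regulators, with 51.4% of all probe sets higher. The counts for triacylglycerol synthesis stayed at 6 and 3.

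**Figure D5:**
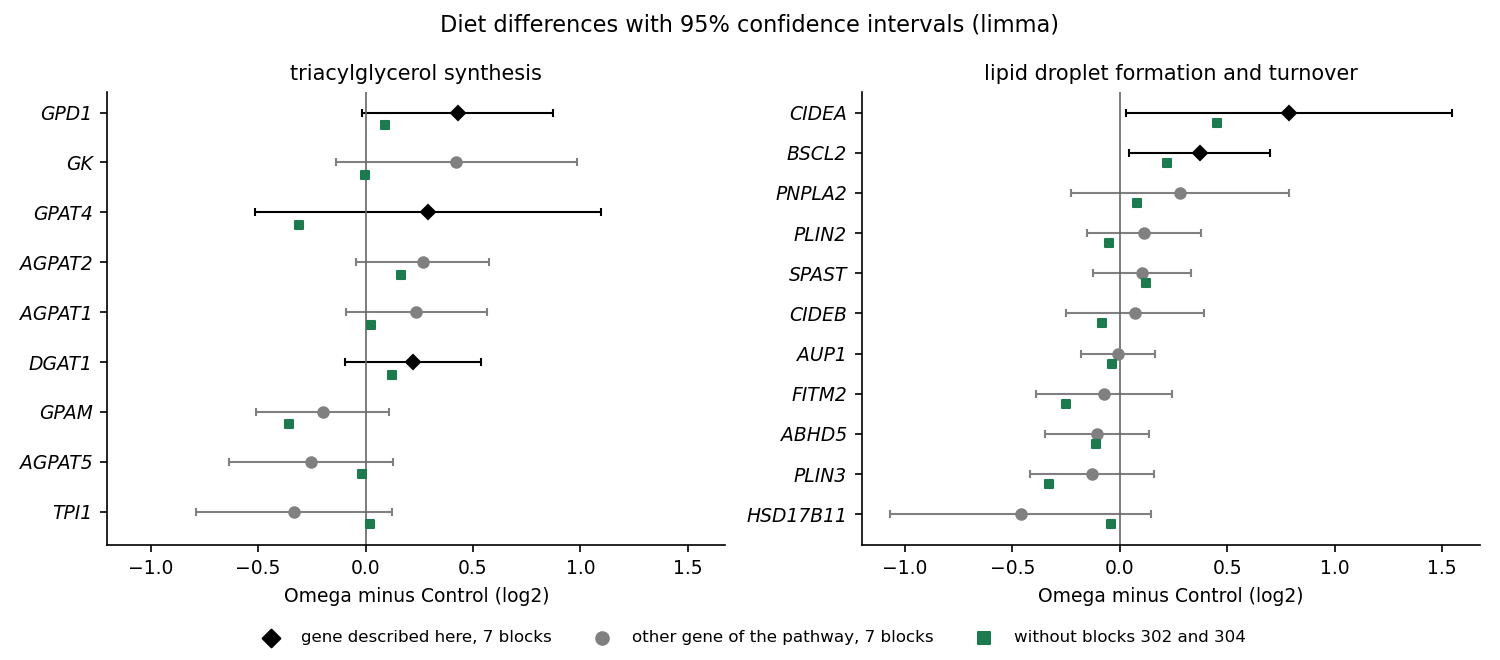
Omega minus Control difference (x axis, log2) with 95% confidence interval (limma, 7 blocks) for the tested genes of triacylglycerol synthesis (left) and of lipid droplet formation and turnover (right), and the same difference without blocks 302 and 304 (squares). CIDEA and BSCL2 are the only genes shown whose interval lies above 0.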

How the data were processed

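The authors deposited 1 table of log2 intensities for 14 arrays. The submitters' processing notes name RMA and GCRMA, methods that correct background, normalise and summarise probes, without versions. The 1 of them that made the table was not given in the sources used here. RNA was extracted with Trizol and labelled with biotin, per the labels. The arrays' medians lay between 5.70 and 5.76 log2. Of 10852 rows, 112 were control probe sets and 10740 carried RefSeq accessions, of which 6749 matched a symbol in RefSeq's gene table (assembly ARS-UCD2.0). The array's own genome build was not given in the sources used here, so no coordinates or sequences are printed.

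Probe sets were tested where their mean exceeded the 30th percentile, 4.59 log2, which left 7518. Diet was fitted with limma 3.58.1 (R 4.3.3) with block as a fixed effect. Parity was fitted with diet fixed and block random, and the interaction with block fixed. Adjustment was by Benjamini-Hochberg over all tested probe sets at 0.05. Correlations used 100000 resamples, two-sided, or all arrangements for 7 values. The fits were tested on simulated data.

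Pairing follows the labelled blocks and the randomisation within them. The 2 cows of a block deviated from their diet means with r of -0.47 to 0.32 over probe sets, above 0.1 in 3 of 7 blocks. The 5 genes, the lists and the 2 cows set aside were chosen with earlier results of these data known. Per list, the up to 4 genes outside the 5 with the smallest unadjusted diet p were named, and GPAM was named after its values were seen. Per gene, the 3 symbols of highest r were named. Alternatives covered block, filter, normalisation, weights, variance model, calving day, coding of parity and left-out blocks.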

Additional observations from a re-analysis of the deposited data

Results flagged for a closer look

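The Control cow of block 304 lay far below the other cows of parity above 1 (n = 10) for GPD1 and GPAT4. Its GPD1 level was 8.37 log2, and its gap to the next cow was 0.833 of the group's range, above the limit that Dixon's test sets for 10 values. For GPAT4 the level was 6.86 log2 and the gap 0.607 of the range. In all 20 groups were checked in this way, and chance alone would mark about 1 in 20. This cow also had the highest SAA3, 13.82 log2, and a poly-A spike mean of 6.18 log2 against 6.75 to 7.41 in the 12 cows that did not stand apart. The part of either in its GPD1 and GPAT4 levels was not tested.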

How the results depend on the processing

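Across the settings run, 0 of the 5 genes passed for diet, parity or their interaction. The diet difference of GPD1, DGAT1, BSCL2 and CIDEA stayed above 0 in all of them, but several settings could not move it. With 1 cow of each diet per block, the difference without the replicate block is necessarily the same. It was 0.43, 0.22, 0.37 and 0.79 log2 for these genes and 0.29 for GPAT4. A random block, other filters and another variance model likewise left every difference as it was and changed only the p-values. GPAT4 turned to -0.31 without blocks 302 and 304 and to -0.038 without block 306 as well. With each block left out in turn, the diet differences ran from 0.27 to 0.53 (GPD1), 0.035 to 0.57 (GPAT4), 0.090 to 0.29 (DGAT1), 0.24 to 0.48 (BSCL2) and 0.54 to 1.04 (CIDEA), and the parity differences from -0.45 to 0.17, -0.58 to -0.20, -0.062 to 0.14, -0.20 to 0.38 and -0.24 to 0.28 in the same order. The lowest parity difference of GPD1, DGAT1 and BSCL2 came without block 306 and that of CIDEA without block 304. Parity signs also turned for GPD1 without the Control cow of block 302 (0.11) or without both Control cows that stood apart (0.0093). For GPAT4 the sign turned without the Control cow of block 302 (0.0011). For BSCL2 and CIDEA it turned with parity as a linear covariate (-0.045 and -0.12 per 1 lower label). CIDEA also turned with quantile normalization (-0.020). The interaction turned to -0.37 for DGAT1 and -0.63 for BSCL2, and went from -0.15 to -1.37 for GPAT4, without blocks 302 and 304, where 1 parity 1 block was left and 3 of 7518 probe sets were called, against 0. These were SLC16A1 (below 0), C4BPA (5.54) and an unnamed probe set of identical values, named after their values were seen. At an unadjusted p under 0.05 the interaction then had 910 probe sets against 125, parity had 1103 without block 304 and 1742 as a linear covariate against 165, and diet had 434 without block 304, 494 without blocks 302 and 304 and 1229 without block 306 against 827. The cause of these turns was not tested.

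Over the 12 cows, r of the 5 pairs that passed was -0.37 (GPD1 and GPAT4), 0.0035 (GPD1 and BSCL2), 0.35 (GPD1 and CIDEA), 0.38 (GPAT4 and CIDEA) and 0.57 (DGAT1 and BSCL2), and the last was 0.47 without the 2 cows farthest from the DGAT1 median. The pairs that turned below 0 over the 12 cows were also GPD1 and DGAT1 (-0.015), GPAT4 and DGAT1 (-0.035), GPAT4 and BSCL2 (-0.14) and BSCL2 and CIDEA (-0.032). By rank the 5 pairs had rho of 0.24, 0.36, 0.60, 0.70 and 0.64, and with the replicate block removed r of 0.75, 0.40, 0.56, 0.54 and 0.80 over the 7 differences, none passing. Quantile normalization brought GPD1 and DGAT1 (0.62) and GPAT4 and BSCL2 (0.62) past the threshold. Fat content had r of -0.26 (GPAT4), -0.13 (BSCL2) and -0.34 (CIDEA) over the 12 cows. SAA3 had rho of -0.070 with GPD1 and -0.13 with CIDEA, and r of -0.19 with GPD1 without the 2 cows of highest SAA3. Each gene had 1 probe set, so the planned use of other probe sets gave no value. Detection calls were not analysed here, so only the filter on the mean separates dim from measured probe sets.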
